A study of Sus scrofa with 24 samples.

Results

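Imprinted genes are expressed mainly from the copy inherited from 1 parent, and 10 of them with known roles in fetal growth were followed here: PEG3, MEST, DLK1, PLAGL1, GRB10, CDKN1C, PEG10, NNAT, SGCE and NDN. They were chosen by name, with all probe sets that the platform annotation gave to those symbols. Of these, 8 genes had 21 probe sets under their own symbol, and NDN had 2 more under its older name NECD, so that 9 genes and 23 probe sets of 13750 named genes and 47845 probe sets were measured. PEG10 is not analysed here because no probe set carried its symbol. All 9 measured genes, with 18 of their probe sets, passed the filter on low signal and were among the 9710 genes tested. Where a gene had several probe sets, the one with the highest median signal stood for it.

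RNA was taken from the LDM (longissimus dorsi muscle, which runs along the spine) of 24 pig fetuses at 63 dpc (days post conception), an F2 generation of German Landrace (DL) x Pietrain (Pi). All were measured on the Affymetrix Porcine Snowball platform, with 1 array for each. The design mentions high and low weight, but the labels give no fetus a weight group, sex or dam. The study lists these for each fetus, but that list was not used here, so no groups were compared, fetuses are named by their numbers, and relations between genes may follow weight, sex or litter, which was not tested. By the study's methods they were sib pairs with a common sire, selected for extremes of weight, so that p-values treat littermates as independent and the relations need not hold in unselected fetuses.

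Array medians lay between 6.61 and 6.73 on the log2 scale. The array of fetus 338 stood apart most, with a median correlation of 0.946 with the other arrays, against up to 0.98. The brightest class of background control probes, which match no transcript, lay between 9.09 and 9.92 and marks the level below which a signal can hold much unspecific hybridization. The 6 measured skeletal muscle markers, out of 9 listed, lay above it on all 24 arrays, whereas no adipocyte, neuron, macrophage or cartilage marker that passed the filter did so on all arrays. The defining muscle genes MYH3, MYH8 and MYOG had no probe set by name.

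Imprinting is set in the germ line by DNA methylation of control regions, which often govern several neighbouring genes at once. In mouse, genes expressed from the paternal copy tend to promote fetal growth and genes expressed from the maternal copy tend to restrain it. PEG3, MEST, DLK1, PLAGL1, PEG10, NNAT, SGCE and NDN are paternally expressed in mouse, whereas CDKN1C and, outside the brain, GRB10 are maternally expressed. Arrays measure the RNA of both copies together, so these data do not show which copy was active.

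The 9 genes differed little between fetuses in most cases. The span, defined as the 90th minus the 10th percentile over the 24 fetuses, had a median of 0.39 over the 9 genes and 0.42 (1.34-fold) over all genes tested, and 4 of the 9 were above that median. SGCE, PEG3 and GRB10 had the widest spans of the 9, and CDKN1C and NDN the narrowest.

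PEG3 encodes a zinc finger protein that acts as a transcription factor in mouse. Its log2 signal was 8.73 in fetus 313, 9.42 at the median and 9.91 in fetus 311, with a span of 0.72 (1.65-fold), larger than that of 90.1% of genes. It exceeded the brightest background class on 13 of 24 arrays. Fetus 313 lay apart at the low end, the next being fetus 283 at 9.04, while fetuses 311, 384 and 338 formed the upper end at 9.87 or above. In the other bright probe set, with a median of 9.33, fetus 313 did not lie apart. There fetus 297 was lowest at 9.0, fetus 313 had 9.05, and fetus 274 was highest at 9.78.

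SGCE encodes epsilon-sarcoglycan, a membrane protein related to the sarcoglycans that link the muscle fibre to its surroundings. Its signal ran from 10.21 in fetus 283 through a median of 10.73 to 11.23 in fetus 327, with a span of 0.74 (1.67-fold), larger than that of 90.8% of genes. The 4 fetuses 327, 320, 329 and 338, at 11.11 or above, were separated from the remaining 20, which reached 10.89.

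PLAGL1 encodes a zinc finger transcription factor that, in mouse, regulates other imprinted genes. Its signal was 9.85 in fetus 313, 10.20 at the median and 10.45 in fetus 384, a span of 0.45 (1.36-fold). Fetuses 313, 376 and 340 were lowest, all at 9.92 or below, and the other 21 began at 10.02.

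DLK1 encodes a transmembrane protein of the Notch ligand family that marks immature cells and, in sheep, is linked to muscle overgrowth. Its signal ran from 12.77 in fetus 327 through 13.05 to 13.34 in fetus 297, a span of 0.37 (1.29-fold). The values were evenly spread and lay far above background on all 24 arrays.

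MEST, which encodes a hydrolase-like protein of mesodermal tissue, ran from 10.08 in fetus 311 through 10.32 to 10.73 in fetus 370, a span of 0.39 (1.31-fold). NNAT, which encodes a small membrane protein of the endoplasmic reticulum, ran from 10.56 in fetus 311 through 10.98 to 11.13 in fetus 384, a span of 0.38 (1.30-fold). NDN encodes necdin, a MAGE family protein that restrains the cell cycle and is used by myoblasts in mouse, and ran from 9.47 in fetus 311 through 9.61 to 10.08 in fetus 327, a span of 0.32 (1.25-fold). Fetus 311 was thus lowest in all 3 genes, although in MEST fetus 272 had the same rounded value of 10.08.

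Of the maternally expressed genes, CDKN1C had a narrow span and GRB10 a wide one. CDKN1C encodes a cyclin-dependent kinase inhibitor that lets muscle precursors leave the cell cycle in mouse. Its signal was 9.66 in fetus 329, 9.83 at the median and 10.15 in fetus 313, a span of 0.32 (1.25-fold). Fetuses 313, 272 and 384 stood above the other 21, at 10.07 or higher against at most 9.92, and without fetus 313 the span was 0.21. GRB10 encodes an adaptor that binds the insulin and IGF1 receptors and dampens their signal. It ran from 8.04 in fetus 311 through 8.47 to 8.75 in fetus 313, a span of 0.56 (1.48-fold), and on none of the 24 arrays exceeded the brightest background class. Its differences can therefore be compressed by unspecific signal.

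**Figure D1:**
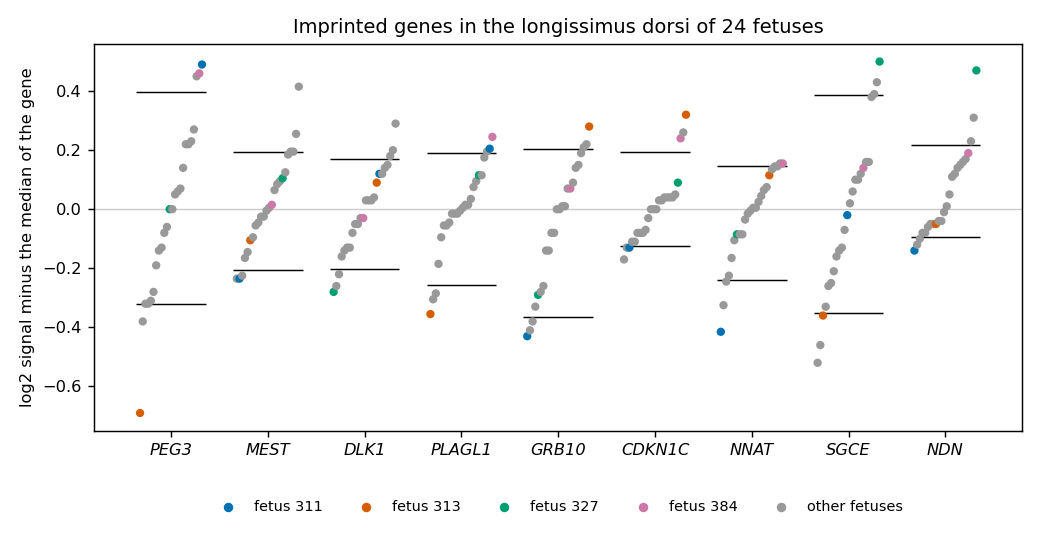
Log2 signal of each imprinted gene (brightest probe set) minus its own median over the 24 fetuses, 1 point per fetus. Black lines mark the 10th and 90th percentiles. Fetus 313 lay lowest in PEG3 and PLAGL1 and highest in GRB10 and CDKN1C, and fetus 311 lay highest in PEG3 and lowest in MEST, GRB10, NNAT and NDN.

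Single fetuses recurred at the ends of several genes. Fetus 311 was the lowest of 24 in 4 of the 9 genes and the highest in PEG3. Fetus 313 was lowest in PEG3 and PLAGL1 and highest in GRB10 and CDKN1C. Fetus 384 was highest in PLAGL1 and NNAT, and fetus 327 was highest in SGCE and NDN and lowest in DLK1. These ends are those of the brightest probe set of each gene. In the other DLK1 probe sets fetus 338 was lowest, and in the other NNAT probe sets fetus 272 or 307 was highest. The other bright probe set of PLAGL1 was highest in fetus 303 and lowest in fetus 340. The other NDN probe set was lowest in fetus 376. How fetuses 311, 313, 384 and 327 differed from the rest in weight, sex or litter was not tested.

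Of the 23 pairs of probe sets for the same gene, 14 were pairs in which both passed the filter, and 10 of these had a Pearson r of 0.5 or higher over the fetuses. The 2 bright PEG3 probe sets moved together with r = 0.829, and the 2 bright PLAGL1 probe sets with r = 0.805. The 3 NNAT probe sets gave r of 0.573 to 0.802. Among the 4 DLK1 probe sets r was 0.378 to 0.749, with the lowest value between the last 2 in the order of the platform.

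The other exceptions were PLAGL1 and NDN. The dimmest PLAGL1 probe set that passed, with a median of 7.01, ran against the brightest one, with r = -0.508, and had r = -0.201 with the other bright set. The 2 NDN probe sets had r = 0.416, and Spearman's rho was 0.278. Which transcripts each probe set detects was not tested.

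Whether these genes rise and fall together over fetuses was tested next. Every gene that passed the filter was regressed on the level of 1 imprinted gene with limma, 1 fit per gene, with Benjamini-Hochberg adjustment of its p-values over 9709 genes. A pair was called where each gene passed an adjusted p of 0.05 in the fit of the other. Of 36 pairs, 5 were called, of which 3 moved in the same direction (PEG3 with PLAGL1, PEG3 with SGCE, GRB10 with NNAT) and 2 in opposite directions (PEG3 with GRB10, GRB10 with SGCE). Over all 36 pairs, r was positive in 20 and negative in 16, with a median of 0.0137.

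These counts have to be read against how many genes of any kind were called. In the fit of PEG3, 22.5% of all genes were called in the same direction and 25.4% in the opposite direction, and of the other 8 imprinted genes 2 and 1 were. For GRB10 the shares were 27.7% and 15.2% of all genes, and 1 and 2 of the 8. For SGCE they were 17.5% and 8.25%, and 1 and 2 of the 8. PLAGL1 gave 12.7% and 6.03% of all genes, and 1 imprinted gene in the same direction, and NNAT gave 3.56% and 0.185%, and also 1 in the same direction. The calls with PLAGL1 rested on few fetuses, since without fetus 313 they numbered 156 in place of 1818, without fetus 338 they numbered 748, and on ranks 0. Those with NNAT numbered 364, but between 3 and 9 in the fits without fetus 338, 283, 311 or 313, and 0 on ranks.

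In the fit of MEST, 2.11% of all genes were called in the same direction and 0% in the opposite direction, and in that of CDKN1C 2.42% and 3.3%, with no member among them in either fit. In the opposite direction to MEST 150 genes had an unadjusted p under 0.05. Taken over the 9 fits, 11 of 72 tests among imprinted genes passed (15.3%), against 16.3% of all tests, so the share among the imprinted genes was near that of genes of any kind.

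PEG3 and PLAGL1 formed the closest pair. The log2 signal of PLAGL1 rose by 0.39 ± 0.09 (SE, n = 24) per unit of PEG3, with r = 0.725 (2-sided permutation p = 5e-05) and rho = 0.673 (permutation p = 0.00057). The adjusted limma p was 0.000809 in the fit of PEG3 and 0.00509 in that of PLAGL1. Fetus 313 was lowest in both genes and fetus 311 was at or near the top in both. Without these 2 fetuses, the farthest from the PEG3 median, r was 0.599 and the larger adjusted limma p was 0.0845, so the call rested on them. On ranks the larger adjusted limma p was 0.0549. The dimmest PLAGL1 probe set had r of -0.279 and -0.176 with the 2 bright PEG3 probe sets.

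GRB10 ran opposite to PEG3, with r = -0.627 (permutation p = 0.00117), rho = -0.646 (permutation p = 0.00092) and adjusted limma p of 0.00267 and 0.00221. Fetuses 311 and 313 lay at the opposite ends of both genes, and without them r was -0.491 with the larger adjusted limma p at 0.0452. With the other bright PEG3 probe set, over all fetuses, r with GRB10 was also -0.491. GRB10 also ran opposite to SGCE, with r = -0.537 (permutation p = 0.00699), rho = -0.47 and adjusted limma p of 0.0108 and 0.0254. In both pairs a gene that is maternally expressed in mouse moved against a paternally expressed one. GRB10 with NNAT, however, joined a gene of each kind in the same direction, with r = 0.618 (permutation p = 0.00126), rho = 0.498 and adjusted limma p of 0.00552 and 0.0444.

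The call of GRB10 with NNAT was lost without any 1 of the fetuses 338, 283, 311 and 313, with adjusted limma p between 0.0606 and 0.157. That of GRB10 with SGCE was lost without fetus 338, 283 or 313, with adjusted limma p of 0.0542, 0.0506 and 0.0599.

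PEG3 and SGCE, both paternally expressed in mouse, rose together with r = 0.577 (permutation p = 0.00314), rho = 0.59 and adjusted limma p of 0.0048 and 0.0118. Without fetuses 313 and 311, r was 0.586. With the other bright PEG3 probe set, over all 24 fetuses, r was 0.369. DLK1 and SGCE had a correlation of similar size in the opposite direction, r = -0.647 (permutation p = 0.0006) and rho = -0.604, but passed only in the fit of SGCE (adjusted limma p = 0.00588) and not in that of DLK1 (adjusted limma p = 0.161). All 4 DLK1 probe sets had a negative r with SGCE, from -0.723 to -0.446. Fetus 327 was the highest of 24 in SGCE and the lowest in the brightest DLK1 probe set. In the other DLK1 probe sets fetus 338 was lowest.

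**Figure D2:**
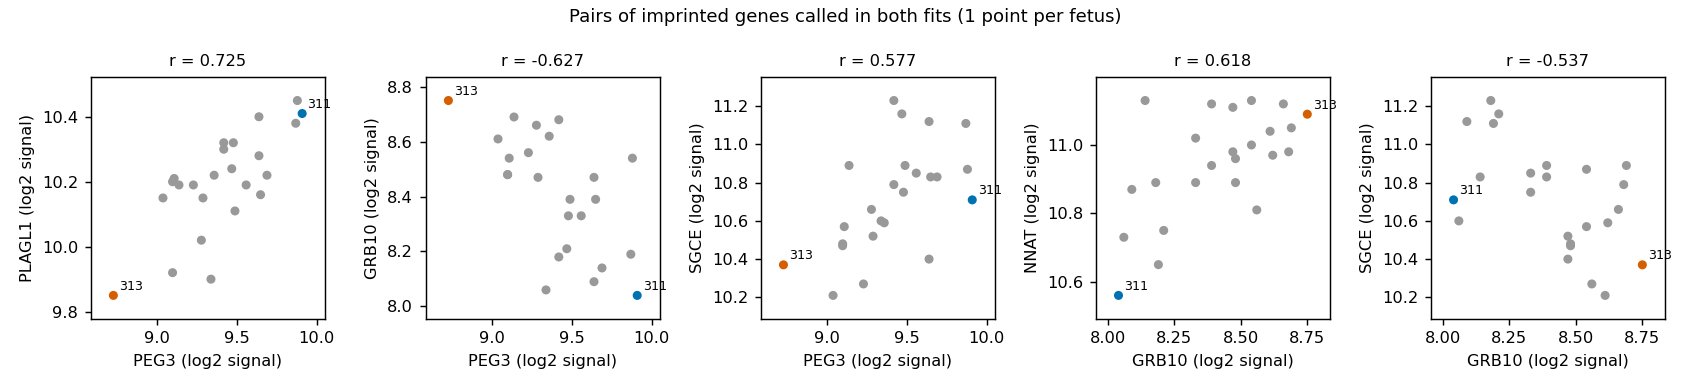
Log2 signal of both genes of each called pair, 1 point per fetus, with fetuses 311 and 313 marked and Pearson's r above each panel. PEG3 rose with PLAGL1 (r = 0.725) and SGCE (r = 0.577) and fell with rising GRB10 (r = -0.627).

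A broad shift across the arrays moved with these genes. The first principal component of all genes held 39.7% of the variance and had r = 0.767 with the mean signal of the background control probes, which lay between 7.30 and 7.94. PEG3 had r = -0.853 (rho = -0.863) with that component and SGCE r = -0.651, while GRB10 had r = 0.747, with permutation p of 1e-05, 0.0007 and 6e-05, unadjusted over 18 such relations. Among all genes, 51.0% had an absolute r of 0.5 or more with it.

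With the background mean, r was -0.656 for PEG3, -0.626 for SGCE, -0.584 for PLAGL1, 0.6 for CDKN1C and 0.444 for GRB10, and 38.1% of all genes reached 0.5 in absolute value. MEST stood apart from the shift, with r of 0.219 and -0.0985. With either measure as a covariate in the fits, none of the 5 pairs was called. PEG3 and PLAGL1 then still had r of 0.558 with the background mean and 0.66 with the first component removed, whereas PEG3 with GRB10 was at 0.0327 with the first component removed. The part of the shift in these relations was not tested. The first component may also hold differences of weight group, sex or litter, which was not tested either. In bulk tissue fewer cells of a type and less RNA per cell cannot be told apart.

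**Figure D3:**
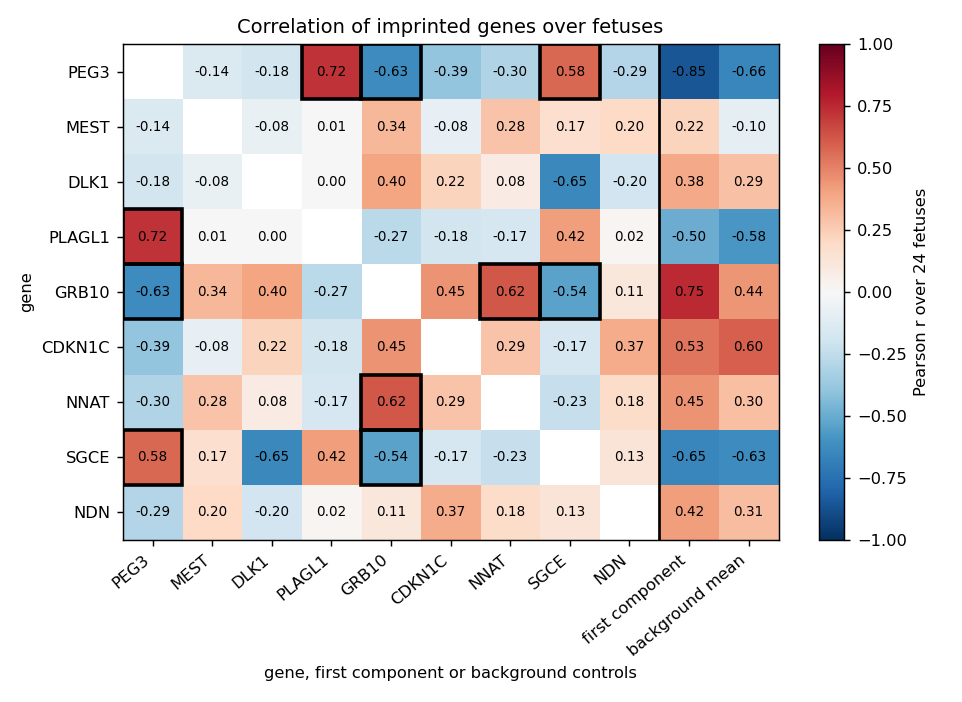
Pearson's r over the 24 fetuses between the imprinted genes (columns to the left of the black line) and with the first principal component and the mean of the background controls (columns to the right), with called pairs framed. PEG3 and SGCE were negative and GRB10 positive with the first component (r = -0.853, -0.651 and 0.747), and the r of MEST with the other genes was at most 0.335.

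Genes of the same imprinted region share control elements in mouse, and 7 measured pairs of neighbours, of genes of 1 region or of 1 network were given permutation tests. NDN moved with MAGEL2, its neighbour in the RefSeq annotation of the assembly Sscrofa11.1 and like it a MAGE family gene, with r = 0.582 (permutation p = 0.0034) and rho = 0.667. NNAT moved with BLCAP, the gene it lies next to, with r = 0.524 (permutation p = 0.00864). CDKN1C had r = 0.492 (permutation p = 0.0152) with PHLDA2, a maternally expressed growth restrainer of the same region in mouse. DLK1 had r = 0.464 (permutation p = 0.0215) and rho = 0.542 with MEG3, the neighbouring noncoding RNA that mouse expresses from the maternal copy.

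Across all genes tested none of these pairs passed, with adjusted limma p of 0.206, 0.0935, 0.0872 and 0.254. MEST with COPG2 had r = 0.335, GRB10 with its neighbour DDC r = 0.0797, and PLAGL1 with IGF2, whose expression it is tied to in mouse, r = -0.114. MAGEL2, DDC and PHLDA2 did not exceed the brightest background class on any array. SNRPN and KCNQ1 had probe sets that did not pass the filter.

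Other measured genes of these regions in mouse were part of the list of imprinted genes described further on, with no permutation tests. COBL, the other neighbour of GRB10, which encodes an actin nucleator, moved with it (r = 0.637, adjusted limma p = 0.00206), where 27.7% of all genes were called in the same direction. ZIM2, a zinc finger gene of the PEG3 region, moved with PEG3 (r = 0.603, adjusted limma p = 0.0149), where 22.5% were. Both calls were lost with the first component as a covariate. ZIM2 did not exceed the brightest background class on any array, whereas COBL did on all 24.

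CPA4, a carboxypeptidase gene of the MEST region, moved with MEST (r = 0.679, adjusted limma p = 0.00936), where 2.11% of all genes were called, but not on ranks (adjusted limma p = 0.123). KLF14 of the same region had r = 0.35 with MEST. RTL1 and DIO3, of the DLK1 region, had r of 0.411 and -0.0626 with DLK1, and UBE3A and ATP10A, of the NDN region, r of -0.406 and 0.462 with NDN. CD81, ASCL2, OSBPL5 and TSSC4, of the CDKN1C region, had r from -0.32 to 0.348 with CDKN1C, and none of these was called.

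MEST moved with genes of connective tissue, tendon and cartilage. Its closest genes over the fetuses were SERPINF1, which encodes a secreted factor of connective tissue (r = 0.863), DPT, which encodes the matrix protein dermatopontin (r = 0.845), and PID1 (r = 0.843). Of the fibroblast markers 3 of 6 were called with MEST in the same direction (DPT, COL1A1, COL3A1), of the tendon markers 2 of 3 (FMOD, TNMD) and of the cartilage markers 2 of 4 (ACAN, COL2A1), none in the opposite direction, against 2.11% of all genes. The median r was 0.597, 0.7 and 0.521 in these lists and 0.0845 over all genes. No skeletal muscle or satellite cell marker was called with MEST, but only 6 and 3 were tested. With 2.11% of all genes called, few calls among them would be seen in any case. The mean level of the fibroblast markers ran from 11.78 to 12.23 over the fetuses, that of the tendon markers from 10.31 to 12.22 and that of the cartilage markers from 7.61 to 8.96.

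Over SERPINF1, PID1 and the called markers, rho with MEST ran from 0.595 (COL2A1) to 0.843 (COL1A1). The fetuses at the ends differed between genes. Fetus 283, lowest in TNMD, ACAN and COL2A1, had a MEST of 10.31, near the MEST median of 10.32. DPT ran from 9.87 in fetus 311 through 10.60 to 11.27 in fetus 340, and rose by 1.66 ± 0.22 (SE, n = 24) per log2 unit of MEST, with rho = 0.811 (permutation p = 2e-05) and an adjusted limma p of 0.000167. TNMD, a membrane protein of tendon cells, ran from 8.76 in fetus 283 through 10.59 to 11.40 in fetus 370, the fetus of highest MEST, with rho = 0.731 (permutation p = 7e-05) and an adjusted limma p of 0.00481. ACAN, the core proteoglycan of cartilage, ran from 6.49 in fetus 283 through 7.61 to 9.12 in fetus 370, below the brightest background class on all arrays, with r = 0.714 and rho = 0.653. Fetus 370 was also highest in FMOD, COL3A1, COL2A1, SERPINF1 and PID1.

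With the first component as a covariate the 7 markers remained called, and TNMD had a slope of 3.33 ± 0.54 against 3.04 ± 0.59 (SE, n = 24) without it. These 9 relations were described after the values had been seen. No gene was called with MEST on ranks, and without fetus 311 or 338 COL2A1 was no longer called, nor, without 338, COL3A1. How much tendon or fascia each sample held was not tested.

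**Figure D4:**
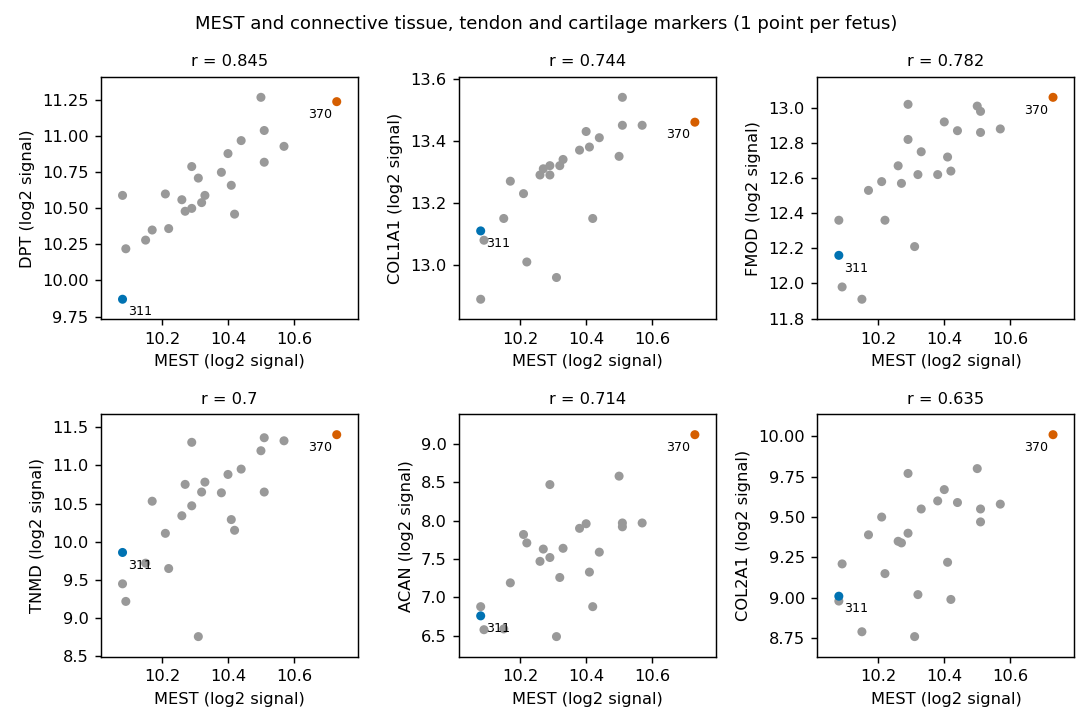
Log2 signal of 6 connective tissue, tendon and cartilage markers against MEST, 1 point per fetus, with Pearson's r above each panel. Fetus 370, with the highest MEST (10.73), was also highest in FMOD, TNMD, ACAN and COL2A1, and fetus 311, lowest in MEST, was lowest in DPT.

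SGCE moved with part of the protein complex its product belongs to. Of 10 measured genes of the sarcoglycan and dystroglycan complex, 5 were called in the same direction and none in the opposite direction, and the median r was 0.469 against -0.0696 over all genes, of which 17.5% were called in the same direction. SGCD, delta-sarcoglycan, had r = 0.676 (adjusted limma p = 0.00266), SGCB, beta-sarcoglycan, r = 0.627 (adjusted limma p = 0.007), and SNTB2, beta-2-syntrophin, r = 0.616 (adjusted limma p = 0.00489). DMD, which encodes dystrophin, and its relative UTRN had r of 0.468 and 0.471. SGCA, the sarcoglycan for which SGCE can stand in within mouse smooth muscle, had r = 0.0893 and DAG1, dystroglycan, r = -0.145.

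SGCD, SGCB and SNTB2 remained called in each fit without 1 of the fetuses 338, 283, 311 and 313, but DMD and UTRN were lost without 338, 283 or 313. None of the 10 was called with the background mean or the first component as a covariate. SGCE also moved with TTN, the titin gene (r = 0.651), the only 1 of 6 muscle markers called, while the median r of the 6 was -0.13. Of the fibroblast markers 3 of 6 moved with it, DCN, LUM and PDGFRA (r of 0.542 to 0.597). Of the satellite and progenitor cell markers 2 of 3 ran opposite to it, the myoblast genes MYOD1 (r = -0.715) and CDH15 (r = -0.654). Among all genes 17.5% were called with SGCE in the same direction and 8.25% in the opposite direction. DCN and LUM were lost without fetus 283 and LUM without 338, and the fibroblast and myoblast calls were lost with either covariate.

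Of 6 other measured genes of the SGCE and PEG10 region, 5 were called in the same direction as SGCE, against 17.5% of all genes. PON2, PPP1R9A, CASD1, TFPI2 and ASB4, which lie in this region in mouse, had r of 0.739, 0.688, 0.589, 0.544 and 0.541, all called, and CALCR, the calcitonin receptor gene, had r = 0.212. PON2 exceeded the brightest background class on 9 of 24 arrays, CASD1 on 4, PPP1R9A on 1, and TFPI2, ASB4 and CALCR on none. TFPI2 lost its call without fetus 338, 283 or 313. The same 5 genes were called with PEG3, which lies elsewhere, with r between 0.68 and 0.888, and with PLAGL1, with r between 0.519 and 0.685. In those fits 22.5% and 12.7% of all genes were called in the same direction. The calls with PLAGL1 were lost without fetus 313 and on ranks. GRB10 ran opposite to 4 of the 5, with r from -0.673 to -0.432, where 15.2% of all genes did. None of the 5 was called with SGCE once the background mean or the first component was a covariate.

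Insulin and IGF signalling genes moved with GRB10 in both directions. Of 22 measured genes, 10 were called in the same direction as GRB10 and 4 in the opposite direction, against 27.7% and 15.2% of all genes, with a median r of 0.447 against 0.153. MTOR, the growth kinase that phosphorylates GRB10, had r = 0.825 (adjusted limma p = 0.000132), IGF2R, the receptor that clears IGF2, r = 0.816 (adjusted limma p = 8.33e-05), and SHC1, an adaptor of the insulin receptor, r = 0.731 (adjusted limma p = 0.00123). MTOR, like GRB10, did not exceed the brightest background class on any array, whereas IGF2R and SHC1 each did on 15 arrays.

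In the opposite direction were RPS6KB1, a kinase downstream of MTOR (r = -0.633), PIK3CA (r = -0.629) and PIK3R1 (r = -0.621), the catalytic and regulatory subunits of PI3 kinase, and INSR, the insulin receptor itself (r = -0.45, adjusted limma p = 0.0405). INSR was lost without fetus 283, 311 or 313, with adjusted limma p from 0.0707 to 0.103, and with the mean of probe sets. The 3 kinase genes moved in the same direction as PLAGL1, with r of 0.693, 0.679 and 0.602, and IGFBP2 moved opposite to it (r = -0.576). With the first component as a covariate no gene of the list was called with GRB10, and 1, PIK3CA, with PLAGL1. No gene of the list was called with PLAGL1 on ranks, PIK3R1 was lost without fetus 313, and IGFBP2 without 338, 311 or 313. GRB10 also moved with the myoblast genes MYOD1 (r = 0.73) and CDH15 (r = 0.698) and with DES, MYL4 and TNNT3 among the muscle markers, and opposite to TTN (r = -0.677). PIK3CA, IGFBP2 and MYOD1 did not exceed the brightest background class on any array.

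Markers of other cell types moved with PEG3, GRB10 and SGCE as well, in fits where 47.9%, 42.9% and 25.8% of all genes were called. TTN rose with PEG3 (r = 0.777), while DES (r = -0.525) and MYL4 (r = -0.447) ran opposite to it, so that 1 of 6 muscle markers was called in the same and 2 in the opposite direction. Of 5 endothelial markers EMCN was called with PEG3 in the same direction (r = 0.769) and CLDN5 and CDH5 in the opposite direction (r of -0.792 and -0.629). RGS5, a pericyte gene, rose with PEG3 and SGCE (r of 0.716 and 0.689) and ran opposite to GRB10 (r = -0.668). It was the only 1 of 4 pericyte and smooth muscle markers called in each of these fits. The median r of the 4 was -0.314 with PEG3, 0.0235 with SGCE and 0.281 with GRB10. NGFR, the only 1 of 4 Schwann cell markers called, ran opposite to PEG3 and SGCE and rose with GRB10 (r of -0.755, -0.626 and 0.576).

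The 3 of 6 muscle and 3 of 5 endothelial markers called with PEG3 were near the share of all genes, and both lists split in direction. The mean level of the endothelial markers ran from 8.70 to 9.13 over the fetuses and that of the pericyte and smooth muscle markers from 9.69 to 10.01, and their part in the relations of PEG3, GRB10 and SGCE was not tested.

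Of 23 measured cyclins, kinases, inhibitors and partners, 1 was called with CDKN1C, CCNE2 (cyclin E2), in the opposite direction, with r = -0.616 and an adjusted limma p of 0.0352. The share was near that of all genes, of which 5.72% were called with CDKN1C in either direction. The proliferation genes MKI67 (r = 0.213) and TOP2A (r = -0.348) and the related inhibitors CDKN1A (r = 0.0188) and CDKN1B (r = -0.333) were not called. The muscle markers TNNT3 and MYL4 moved with CDKN1C, both with r = 0.683, and so did CHRNE, the acetylcholine receptor subunit of mature fibres, with the highest r of all genes (0.837, adjusted limma p = 0.00139). Without fetus 313, the fetus of highest CDKN1C, 2 of 9709 genes were called in place of 555, and no muscle marker was among them. Without fetus 311 the number was 53 and without fetus 338 it was 1432, while on ranks or with either covariate it was 0. CCNE2 was lost without fetus 311 or 313 and CHRNE without fetus 313.

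For DLK1 and NDN, limma called no gene in either direction (0% of all genes each), although 1646 and 1665 of 9709 genes had an unadjusted p under 0.05. No gene was called with them on ranks either. The highest correlations with DLK1 were those of FASN, fatty acid synthase (r = 0.734, adjusted limma p = 0.0683), SUGP1 and CYBA. Of 15 measured Notch pathway genes none was called with DLK1, and the largest r were those of LFNG (0.605), HEYL (0.585) and NOTCH1 (0.521).

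With the mean of its 4 probe sets in place of the brightest one, 1393 genes were called with DLK1 in the same and 1153 in the opposite direction. NDN likewise had 308 and 382 with the mean of its 2 probe sets. Of the 4 other MAGE family genes MAGED1 had r = 0.596 and MAGEL2 r = 0.582 with NDN, and of 23 cell cycle genes none was called.

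NNAT acts on calcium stores in neurons and pancreatic cells of the mouse. None of 10 measured calcium handling genes of the sarcoplasmic reticulum was called with it by limma, where 3.56% of all genes were called in the same and 0.185% in the opposite direction, so that few calls among 10 genes would be seen in any case. The largest absolute r was that of TRDN, triadin (-0.436, adjusted limma p = 0.119). MYOD1 was called with NNAT (r = 0.618, adjusted limma p = 0.0455), as was CD81, which with GRB10 made the imprinted genes called in that fit (r = 0.733, adjusted limma p = 0.0444). The calls of MYOD1 and CD81 were lost without any 1 of the fetuses 338, 283, 311 and 313, with adjusted limma p from 0.0606 to 0.157, and on ranks.

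By Pearson's r over the 24 fetuses, the gene most like each imprinted gene was sought among all genes that passed the filter. PEG3 was closest to FRMD4B, PCYOX1 and HP1BP3 (r of 0.949, 0.94 and 0.935) and farthest from CNOT3 (r = -0.858). SGCE was closest to RAB2A, ADK and GATAD1 (0.91, 0.896 and 0.895) and farthest from SAMM50 (-0.812). GRB10 was closest to UBA1, CIB1 and EPHB3 (0.907, 0.899 and 0.891) and farthest from UBA3 (-0.887). UBA1 and UBA3 encode the activating enzymes for ubiquitin and for its relative NEDD8.

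PLAGL1 was closest to MRPL3, STAM and KIF13A (0.863, 0.856 and 0.849) and farthest from TRIM66 (-0.782). NNAT was closest to TMEM231, PI4KA and PLCD3 (0.85, 0.821 and 0.786) and farthest from IRAK1BP1 (-0.667). CDKN1C followed CHRNE with PDGFA and GSTA1 (0.824 and 0.773) and was farthest from PCDH9 (-0.769). MEST was farthest from ITGA2B (-0.615) and DLK1 from RPS27L (-0.707), neither called. The genes nearest to NDN, FBXL14, CCDC115 and SLC25A35 (0.718, 0.695 and 0.694), and the farthest, CKAP2L (-0.662), were not called.

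A list of 58 other imprinted genes had 47 with a probe set, of which 37 passed the filter. Whether each of them is imprinted in pig muscle was not tested. With PEG3, 14 of the 37 were called in the same direction and 7 in the opposite direction, against 22.5% and 25.4% of all genes. The closest were PPP1R9A (r = 0.888), RB1, the retinoblastoma gene (r = 0.885), and CASD1 (r = 0.881), while SLC22A3 (r = -0.703) and ATP10A (r = -0.638) ran opposite. With SGCE 9 were called in the same and 3 in the opposite direction, against 17.5% and 8.25% of all genes, and with PLAGL1 also 9 and 3, against 12.7% and 6.03%. With GRB10 the counts were 7 and 8, against 27.7% and 15.2%. MEST, CDKN1C and NNAT each had 1, namely CPA4 (r = 0.679), BLCAP (r = 0.602) and CD81, and DLK1 and NDN none.

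Without fetus 313, or on ranks, none of the 37 was called with PLAGL1, and with the first component as a covariate none was called with PEG3, GRB10 or SGCE. IGF2, the main fetal growth factor of this family, ran only from 14.21 to 14.49 with a span of 0.16 and was called with SGCE alone (r = -0.621, adjusted limma p = 0.0251), a call lost without fetus 338 or 283 (adjusted limma p of 0.072 and 0.0637) and with centred arrays (0.0559). CPA4 ran from 6.60 in fetus 376 to 8.31 in fetus 274, below the brightest background class on all arrays.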

How the data were processed

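Total RNA of the LDM of 24 fetuses was hybridized to 1 Porcine Snowball array each. The values deposited by the authors are on a log2 scale, made in Expression Console by RMA (robust multichip average), which corrects background and summarizes the probes of a set. RMA gives all arrays the same distribution, so overall differences in brightness are lost and unchanged probe sets may be displaced. The submitters' processing notes also name GCOS 1.1.1. The authors' detection calls were not used, and a genome build was not given in the sources used here.

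Probe sets above the median of their array in at least 80% of arrays (20 of 24) were kept, and each gene was represented by the kept probe set of highest median. Symbols of 325 probe sets were updated through RefSeq synonyms (Sscrofa11.1). Each gene was regressed on each imprinted gene with limma 3.58.1 (lmFit, eBayes with trend) in R 4.3.3, with Benjamini-Hochberg adjustment over all genes and a threshold of 0.05. The script was tested on simulated data. Correlations over fetuses (Pearson's r, Spearman's rho) were run in Python 3.11.15 with 100000 permutations each, where 1e-05 is the smallest p they can give, and r was repeated after removing the pair of fetuses farthest from the median.

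Background controls with 13 or more G or C bases (39 probe sets) gave the background mean, and those with 25 the brightest class. All 24 fetuses stayed without a group, and the fit of weight, sex and dam in the methods was not run. The imprinted genes and all lists were chosen with earlier results of these data known. Named were the imprinted genes, the 3 genes of highest and the 1 of lowest r with each, up to 3 called genes of largest r per list, the measured imprinted genes and probe sets that disagreed. Other named genes were chosen after their values were seen. Alternatives were other filters, the mean of probe sets, centred arrays, the background mean or first component as a covariate, ranks, symbols without update, and leaving out fetus 338 or 283. Leaving out fetus 311 or 313 was added after seeing the data.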

Additional observations from a re-analysis of the deposited data

How the results depend on the processing

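Of 3 pairs called in the same direction and 2 in the opposite direction, 0 and 0 were called with the background mean as a covariate, and 0 and 0 with the first component. On ranks 1 and 1 were called. Of the 2 opposite pairs, 1 was called with centred arrays, and 1 in each fit without fetus 338, 283 or 313. With the mean of probe sets 4 and 3 pairs were called. The same 5 pairs were called with the stricter filter and with symbols as in the platform annotation, and 4 of them with no filter. The r of PEG3 with GRB10 changed sign with the first component as a covariate but was only 0.0327 (larger adjusted limma p = 0.966), so no relation was left. Over all alternatives 64 of 65 values of the called pairs kept their sign and 41 their call. These tallies include values that could not change. With no filter, the stricter filter and symbols as in the platform annotation, r was that of the main fit. With symbols as in the platform annotation the adjusted limma p was the same too. Of 63 spans, 61 moved by less than 1 SD, and PEG3 (0.40 with the background mean removed) and PLAGL1 (0.21 with the mean of probe sets) moved by more. Without fetus 313, 156 genes in place of 1818 were called with PLAGL1. No paired analysis was made, because groups were taken from the labels alone, which give no replicate numbers, groups or dams. The study's own list of weight group, sex and dam was not used. Why a setting changed a value was not tested, except that leaving out a fetus lowers n. With 24 arrays and no repeat arrays, technical and biological spread cannot be told apart.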
